A study of Homo sapiens with 14 samples.

Results

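The genes described here encode the proteins of the cytosolic ribosome, in A549 cells, a human lung carcinoma line. Members were chosen by name and not by a measured change, though earlier results of these data were known. They are the genes named RPL or RPS followed by a number, with or without a final A, together with RPLP0, RPLP1, RPLP2, RPSA and RPS4X, with a mean of at least 1 FPKM over 14 libraries. FPKM is the number of fragments per kilobase of a transcript, relative to the library's depth, and a gene's value is the sum over its isoforms. All 77 genes with such names passed, 46 of the large (60S) subunit and 31 of the small (40S) subunit, out of 57756 genes listed. They have 744 of the 195553 isoforms listed, and 615 of these had a mean of at least 1 FPKM. No member lay near the limit of 1 FPKM, since the lowest, RPS26, had a mean of 65.8.

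The study compared splicing in cells that overexpress wild-type or S34F mutant U2AF1, the small subunit of the factor that recognises the 3′ end of introns. Its 7 groups had 2 libraries each. These were untreated A549 cells, A549 cells given control siRNA together with the empty vector, A549 cells in which U2AF1 was knocked down by siRNA before the empty vector was given, and 4 groups that received a U2AF1 construct after the same knockdown. The constructs were v1 wild type, v1 S34F, v3 wild type and v3 S34F, where v1 and v3 are U2AF1 isoforms. All cells were grown in RPMI-1640 with fetal bovine serum, and the constructs were delivered by virus, as the labels state. A single cell line was used, and FPKM of U2AF1 cannot tell a construct from the cell's own gene or S34F from wild type. The labels do not state whether replicates are separate cultures, and the p-values below rest on the spread between the 2 libraries of a group, which could be technical.

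U2AF1 itself had a level of 117 and 119 FPKM in the control siRNA libraries, 16.2 and 28.9 FPKM after knockdown, and between 2114 and 3852 FPKM in the 8 libraries with a construct. Relative depth, read from the ratio of coverage to FPKM, ranged from 0.798 to 1.198. All 8 epithelial and A549 markers were expressed, with a summed level of 6831 to 8522 FPKM. Of the alveolar type 2 markers 1 of 7 reached a mean of 1 FPKM, ABCA3 at 8.44, and SFTPA1 and SFTPA2 were at 0. Of the fibroblast markers 2 of 8 reached it, COL1A1 at 7.84 and THY1 at 2.30, and DCN was at 0. Of the leukocyte and endothelial markers 1 of 8 reached it, CD68 at 33.1. In v1 S34F replicate 2, 33.1% of all FPKM belonged to a 75-base isoform of AL132768.1, and in knockdown replicate 1 MIR1260B held 8.81%. Those libraries are affected when values are rescaled to a fixed sum.

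Each ribosome holds 1 copy of nearly every ribosomal protein, so cells make these proteins in balanced amounts, and their mRNAs are among the most abundant in growing cells. Most of these mRNAs begin with a C followed by a run of pyrimidines, the terminal oligopyrimidine (TOP) motif, through which the mTOR pathway controls their translation. Several ribosomal protein genes are known to limit their own output by unproductive splicing, in which an isoform with a retained intron or an early stop codon is made in place of the coding one. The S34F change of U2AF1 is known to alter which bases are favoured just before the AG that ends an intron.

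The clearest change among the ribosomal protein isoforms was in RPS24 (ENSG00000138326, chromosome 10, 79793518 to 79816570 in GRCh37), a 40S protein that is mutated in some patients with Diamond-Blackfan anemia. Its isoforms differ at the end of the coding region, where very short exons are joined or left out. They are shown because the finding turns on these few bases. The lines give the spliced sequence from the last 12 bases of the fourth exon into the first 9 bases of the 22-base exon, from GENCODE release 29 transcripts (GRCh38, plus strand), with the bases that differ in capitals.
ENST00000372360, no extra exon: gctggcaaaaagtgagctgga
ENST00000360830, 3-base exon: gctggcaaaaagAAGtgagctgga
ENST00000464716, 3-base and 18-base exons: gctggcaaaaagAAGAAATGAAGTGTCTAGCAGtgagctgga
ENST00000435275, 22-base exon extended by 3 bases: gctggcaaaaagCAGtgagctgga

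The annotated coding regions without the stop codon are 390, 393, 396 and 393 bases in that order. The 3-base exon thus adds 1 codon, AAG for lysine, in front of the TGA stop. With the 18-base exon as well, the added bases hold a stop codon of their own. The identifiers tie these structures to the deposited values. For ENST00000372360, ENST00000360830 and ENST00000464716 the isoform length in the deposited tables differs from that in GENCODE release 29, so the ends of the transcripts counted may have differed.

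The acceptors, the 3′ ends of the introns in front of these exons, are shown with 20 intron and 10 following bases, with the last 3 intron bases in capitals.
RPS24 3-base exon, chr10:78037419-78037448, GRCh38, plus strand: cctcttcttctggattaCAGaaggtaacat
RPS24 18-base exon, chr10:78037945-78037974, GRCh38, plus strand: ttggatttcttgttcatCAGaaatgaagtg
RPS24 22-base exon, chr10:78040184-78040213, GRCh38, plus strand: cttccccgccactgattCAGtgagctggag
All of them had C before the AG. The annotated start of the extended exon lies within the last of these windows, 3 bases upstream, and the bases in front of it, ATT, do not end in AG.

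RPS24 usage, the share of the gene's FPKM in 1 isoform, moved from the isoform with no extra exon to those with the 3-base exon after knockdown. ENST00000372360 had 75.4 and 68.6% of RPS24 with control siRNA and 43.6 and 31.6% after knockdown. It had 73.6 and 75.9% with v1 wild type, 74.4 and 77.1% with v3 wild type, 74.4 and 80.7% with v1 S34F, 75.8 and 78.8% with v3 S34F, and 76.2 and 73.7% in untreated cells. The knockdown libraries were the lowest 2 of the 14 and did not overlap with any other group.

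The fall after knockdown was -34.4 percentage points (standard error 4.76, limma adjusted p = 0.0418). With the replicate number as a block the same difference had an adjusted p of 0.0514, and with 1 library left out it was called in 1 of 14 fits, that without knockdown replicate 1 (adjusted p from 0.0296 to 0.139). Where a fit leaves a group with 1 library, the other groups supply the spread, and the lone library is assumed to vary as they do. With wild-type U2AF1 against the knockdown the difference was 37.6 points (standard error 4.13, adjusted p = 0.0145). It was called in 10 of 14 fits with 1 library left out and lost without knockdown replicate 2, v1 wild-type replicate 2 or either v3 wild-type library (adjusted p up to 0.0689). Both comparisons use the same knockdown libraries.

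ENST00000360830, with the 3-base exon, had 17.5 and 22.1% of RPS24 with control siRNA and 38.7 and 43.6% after knockdown. In the libraries with a wild-type construct it had between 14.5 and 18.2%. Its rise after knockdown of 21.3 points did not pass the test (standard error 3.50, limma adjusted p = 0.0696). Its fall with wild-type U2AF1 did, at -25.2 points (standard error 3.03, adjusted p = 0.0179), and it was lost in the same 4 fits with 1 library left out (adjusted p up to 0.107).

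All isoforms holding the 3-base exon together had 18.9 and 23.9% of RPS24 with control siRNA and 42.9 and 51.4% after knockdown. The 18-base exon was in 1.38 and 1.81% with control siRNA and in 4.26 and 7.87% after knockdown. The extended 22-base exon was in 3.45 and 3.82% with control siRNA and in 8.03 and 9.01% after knockdown. The last 2 events were chosen after their values were seen and carry no test. In both, the 2 knockdown libraries were the highest of the 14.

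In absolute terms ENST00000372360 went from a mean of 1213 to 734 FPKM and ENST00000360830 from 330 to 799 FPKM between control siRNA and knockdown. The RPS24 total was 1813 and 1545 FPKM with control siRNA and 1984 and 1909 FPKM after knockdown, a log2 difference of 0.22 that did not pass the test (standard error 0.12, limma adjusted p = 0.350). The S34F comparison gave 2.19 points for ENST00000372360 (standard error 3.37, adjusted p = 0.898), so no difference between mutant and wild type was detectable within that error.

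**Figure D1:**
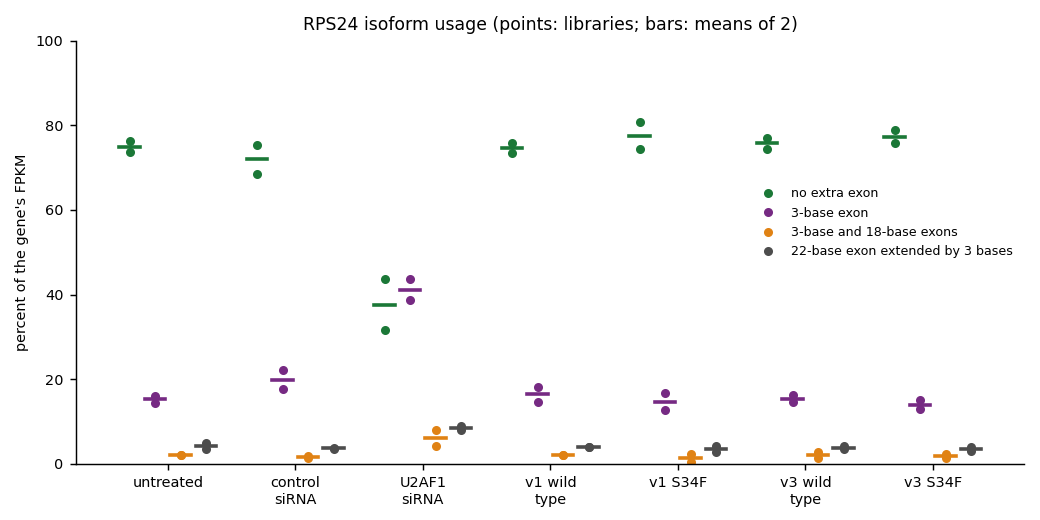
Share of RPS24 FPKM (percent, vertical axis) in 4 isoforms for the 7 groups; points are libraries and bars are means of 2. The isoform with no extra exon drops to 43.6 and 31.6% after U2AF1 knockdown and the isoform with the 3-base exon reaches 38.7 and 43.6%.

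Usage was tested for 41727 isoforms from 11666 genes, those averaging 5 to 95% of their gene. Among them 0.129% were called after knockdown and 0.273% with wild-type U2AF1. The ribosomal protein genes had 153 isoforms of 63 members among them. Of these 1 was called after knockdown and 2 with wild-type U2AF1, all of RPS24. At an unadjusted p under 0.05 the counts were 14 and 10 of 153, against 10.3 and 10.8% of all isoforms tested.

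RPL24 (ENSG00000114391, chromosome 3, 101399935 to 101405626 in GRCh37), a 60S protein, had the next smallest p after knockdown. Its main isoform ENST00000394077 had 92.8 and 93.5% of the gene with control siRNA and 83.1 and 81.0% after knockdown. The groups did not overlap, but the difference of -11.1 points did not pass the test (standard error 2.55, limma adjusted p = 0.164). With wild-type U2AF1 it was 9.29 points (standard error 2.21, adjusted p = 0.147).

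An RPL24 isoform lacking an exon of 64 bases, ENST00000495401, had 4.38 and 3.24% with control siRNA and 10.9 and 9.21% after knockdown. The isoform with a retained intron, ENST00000464595, had 2.39 and 2.59% with control siRNA and 5.17 and 9.24% after knockdown. In every other library it had between 2.02 and 2.83%. The acceptor of the 64-base exon, shown because this exon is the one left out, has C before the AG.
RPL24 64-base exon, chr3:101682483-101682512, GRCh38, minus strand: aagttacttttaccccaCAGggctgctaag

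RPL23A, a 60S protein near the exit of the peptide tunnel, had 2 main isoforms. ENST00000394935, which holds a 17-base exon, had 60.4 and 44.98% with control siRNA and 30.4 and 34.7% after knockdown. With wild-type constructs it had 63.2 and 63.1% for v1 and 52.4 and 43.1% for v3. The knockdown libraries were the lowest of the 14, and neither the fall of -20.2 points (standard error 6.97, limma adjusted p = 0.354) nor the rise of 22.9 points with wild-type U2AF1 (standard error 6.03, adjusted p = 0.183) passed the test. RPL23A is among the members with many near-identical pseudogene copies, so reads may be shared in ways these tables do not show.

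With S34F none of the 153 isoforms was called, against 0.681% of all isoforms tested, and 8 had an unadjusted p under 0.05, against 12% of all. The smallest p was in RPLP1 (ENSG00000137818, chromosome 15, 69745123 to 69748255 in GRCh37), an acidic protein of the P stalk, which recruits elongation factors to the ribosome. Its isoform ENST00000260379 had 82.3 and 82.3% of the gene with v1 wild type, 73.9 and 67.8% with v1 S34F, 83.4 and 83.5% with v3 wild type, and 75.5 and 72.5% with v3 S34F. All 4 S34F libraries lay below all 4 wild-type ones. The difference was -10.5 points (standard error 2.45, limma adjusted p = 0.0984).

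ENST00000357790, which lacks an RPLP1 exon of 75 bases, had 16.0 and 15.1% with v1 wild type, 24.3 and 29.9% with v1 S34F, 15.03 and 14.3% with v3 wild type, and 22.4 and 25.005% with v3 S34F. The difference was 10.3 points (standard error 2.55, adjusted p = 0.116), with 11.6 points for v1 and 9.05 for v3. Knockdown libraries had 21.2 and 23.0% of it, against 14.4 and 11.1% with control siRNA. Untreated libraries had 19.96 and 13.1%. The acceptor of the exon left out has T before the AG and that of the next exon has C, as the windows show. Whether these bases bear on the difference was not tested, and their share over all introns is not given here.
RPLP1 75-base exon, chr15:69453627-69453656, GRCh38, plus strand: gacgtttttatttgttgTAGgaggataaga
RPLP1 118-base exon, chr15:69455150-69455179, GRCh38, plus strand: tgcatgcacatgtattgCAGgccctggcca

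RPS26 (ENSG00000197728, chromosome 12, 56435637 to 56438116 in GRCh37), a 40S protein at the mRNA exit channel, had a similar order of groups. Its main coding isoform ENST00000552361 had 71.7 and 65.5% with v1 wild type, 61.1 and 40.3% with v1 S34F, 72.4 and 74.0% with v3 wild type, and 57.5 and 61.3% with v3 S34F. The difference was -15.8 points (standard error 4.28, limma adjusted p = 0.151). With v1 S34F replicate 1 left out, so that replicate 2 at 40.3% stood alone for that group, it was -21.0 points with an adjusted p of 0.0275. With replicate 2 left out it was -10.6 points with an adjusted p of 0.267.

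RPS26 has another coding isoform, ENST00000356464, with an annotated coding region of 345 bases, as long as that of ENST00000552361. Its mean usage was 22.1% with v1 wild type and 32.9% with v1 S34F. For v3 the means were 18.7 and 27.2%. In v1 S34F replicates 1 and 2 it had 23.5 and 42.4%. The fall of ENST00000552361 was thus not only towards the retained intron. The RPS26 isoform with a retained intron, ENST00000548590, had 6.24 and 12.5% with v1 wild type and 15.4 and 17.3% with v1 S34F. With v3 it had 7.69 and 8.59% for wild type and 14.04 and 12.7% for S34F. Its mean level was only 6.37 FPKM, as RPS26 was the member with the lowest mean, 65.8 FPKM. The S34F libraries were above the wild-type ones, with the closest 12.5 and 12.7%. That intron ends in T before the AG, and the window is shown because this is the intron retained. A link of this base to S34F was not tested. Among the members described for S34F, acceptors are shown for RPLP1 and RPS26 only.
RPS26 131-base exon, chr12:56043343-56043372, GRCh38, plus strand: ctctattttctattcctTAGcctatgtgct

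RPL17, a 60S protein, had 64.6 and 64.9% of its FPKM in ENST00000580261 with v1 wild type and 64.8 and 64.7% with v3 wild type. With S34F the values were 58.0 and 54.2% for v1 and 56.2 and 51.0% for v3. The groups did not overlap, and the difference of -9.93 points did not pass the test (standard error 2.58, limma adjusted p = 0.134). RPL17 also shares sequence with other genes.

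**Figure D2:**
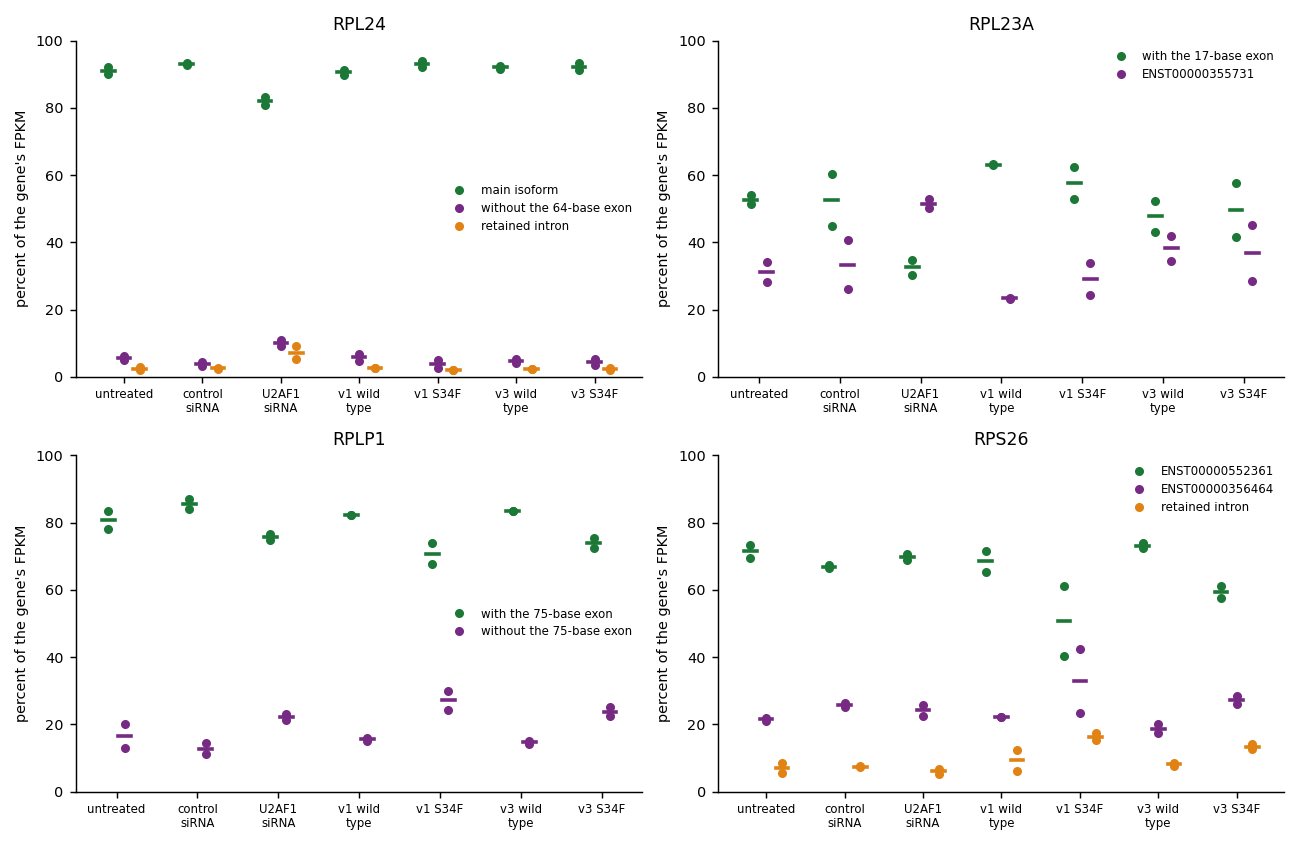
Share of the gene's FPKM (percent, vertical axis) in named isoforms of RPL24, RPL23A, RPLP1 and RPS26 for the 7 groups; points are libraries and bars are means of 2. The RPLP1 isoform without the 75-base exon lies between 22.4 and 29.9% in the S34F libraries and between 14.3 and 16.0% in the wild-type ones.

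In the other usage comparisons no ribosomal protein isoform was called. Between untreated cells and control siRNA 0.00959% of all isoforms tested were called, and the member with the smallest p was RPS27A ENST00000402285 (14.6 points, standard error 5.70, limma adjusted p = 0.952), followed by RPLP2 ENST00000530398 (12.4 points) and RPL19 ENST00000579374 (8.91 points). The RPLP2 isoform stood at 26.4% in control siRNA replicate 2 and at 1.80 to 6.53% in the other 13 libraries. Between v3 and v1 0.00479% were called, and RPL23A ENST00000394935 differed by -11.7 points, RPL23A ENST00000355731 by 11.3 points and RPL22 ENST00000471204 by 3.88 points (adjusted p = 1 each). For the difference of the S34F effect between v3 and v1 0% were called, and the smallest p belonged to RPL22 ENST00000471204 (8.10 points), RPS3 ENST00000532872 (-4.21 points) and RPL27A ENST00000526562 (2.87 points), each with an adjusted p of 1.

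Unproductive share is the percent of a gene's FPKM in isoforms that GENCODE release 29 types as targets of nonsense-mediated decay or as retained introns. Its median over the 77 members was 1.96%, and 31 members were under 1%. In 6 members it was over 30%. These were RPS28 at 83.8%, RPL4 at 53.5%, RPS3 at 39.6%, RPL13 at 37.7%, RPS23 at 33.97% and RPL8 at 31.5%. Such shares rest on how an unnamed quantifier divided reads among overlapping isoforms, so they are not direct measures of unproductive mRNA. The isoform with the largest share was typed as a retained intron in RPS28 and RPL4 and as a processed transcript in RPL37.

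Among 8 members listed for known unproductive splicing, RPS3 had 39.6%, RPS26 9.68%, RPL3 5.58%, RPS13 4.75%, RPS24 2.77% and RPS16 1.51%. RPL10A and RPL12 were at 0 by this measure, which leaves out isoforms typed as processed transcripts. Such isoforms held 5.58% of RPL10A and 3.92% of RPL12. The share was tested in 7270 genes with a mean between 1 and 99%, 46 of them members. No member was called in any comparison, against 0.0138% of all genes between untreated and control siRNA cells, 0.0275% with wild-type U2AF1 and 0% in each of the other comparisons. At an unadjusted p under 0.05 there were 2 members after knockdown, 2 with wild-type U2AF1 and 3 with S34F, of 46, against 7.18, 7.63 and 8.61% of all genes tested.

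After knockdown the unproductive share of RPL24 was 5.62 and 9.68%, against 2.73 and 3.07% with control siRNA (4.75 points, standard error 1.43, limma adjusted p = 0.429). That of RPS24 was 4.24 and 6.89%, against 1.55 and 2.93% (3.32 points, standard error 1.35, adjusted p = 0.625). RPS2 differed by 1.73 points (adjusted p = 0.857). With wild-type U2AF1 the differences were -4.44 points for RPL24, -3.39 for RPS24 and -1.90 for RPS2, with adjusted p of 0.317, 0.451 and 0.654.

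With S34F the unproductive share of RPL21, a 60S protein with many pseudogenes, was 20.3 and 26.7% for v1 and 19.1 and 23.9% for v3. With wild type it was 14.6 and 16.2% for v1 and 11.5 and 11.3% for v3. The groups did not overlap, and the difference of 9.08 points did not pass the test (standard error 3.01, limma adjusted p = 0.385). RPS26 differed by 6.11 points (standard error 2.03, adjusted p = 0.385) and RPS25, a 40S protein needed for several viral internal ribosome entry sites, by 5.55 points (standard error 2.30, adjusted p = 0.526).

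Between untreated and control siRNA cells the smallest p belonged to RPL14 (4.71 points), RPS3 (5.98 points) and RPL13A (-1.25 points), each with an adjusted p of 0.984. The RPL14 value was 10.0% in control siRNA replicate 2 and between 0.633 and 2.05% in the other 13 libraries. Members with a small p for v3 against v1 included RPS26 (-2.09 points) and RPL21 (-3.02 points). For the difference of the S34F effect they included RPL9 (2.60 points) and RPL4 (3.16 points), all with an adjusted p of 1.

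The levels of the members spanned from 65.8 FPKM for RPS26 to 2378 for RPS19, with a median of 927. They are scaled to length by a quantifier that is not named, so comparisons between genes are approximate. Among the highest means were RPS19, a 40S protein needed for maturation of 18S rRNA and the gene most often mutated in Diamond-Blackfan anemia, at 2378 FPKM, RPS16 at 1924, RPL4 at 1921, RPS24 at 1891, RPL19 at 1626, RPL8 at 1613, RPL26 at 1604, RPL10 at 1458 and RPL41 at 1400. RPS16, RPL4 and RPS24 differed by less than the spread of each over the libraries. The 5 lowest were RPS26 at 65.8, RPS28 at 79.6, RPL21 at 201, RPL9 at 247 and RPS25 at 298 FPKM. Several of these low members have near-identical processed pseudogenes, and how the quantifier divided such reads is not given in the sources used here.

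**Figure D3:**
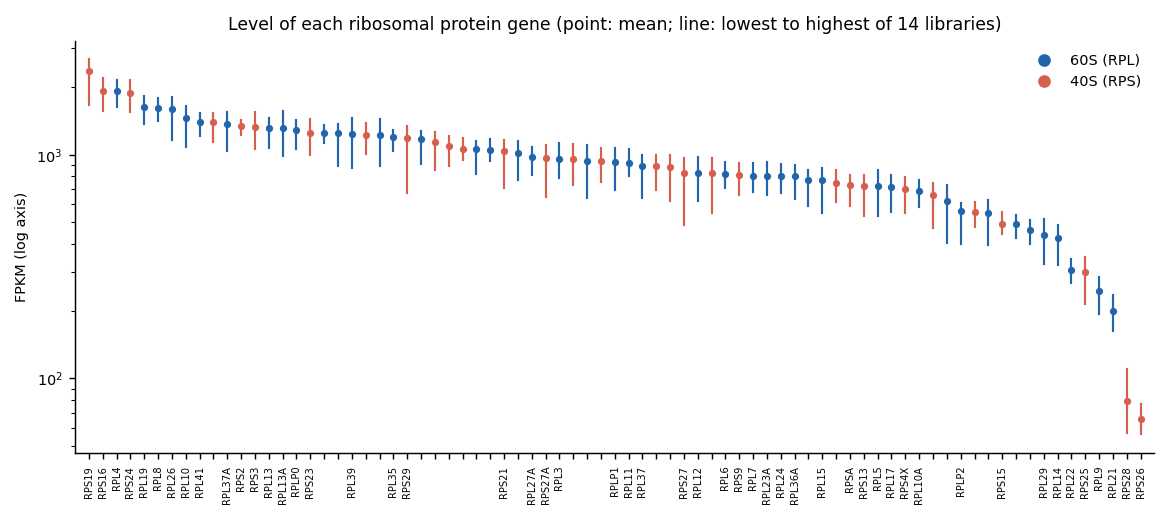
Level of each of the 77 ribosomal protein genes in FPKM (log axis), ordered by mean; points are means and lines run from the lowest to the highest of 14 libraries. Means run from 65.8 FPKM (RPS26) to 2378 FPKM (RPS19), and 60S and 40S genes are mixed along the order; symbols mark members named in the text.

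Over all libraries a member's highest value was between 1.17 and 2.01 times its lowest, with a median of 1.45 times. RPS27 and RPS29 had the widest ranges, 2.01 and 2.00 times. The lowest value fell in untreated replicate 1 for 38 members and in control siRNA replicate 2 for 31. The highest value fell in v1 S34F replicate 1 for 37 members and in v3 wild-type replicate 1 for 17. The summed level was 61265 and 67143 FPKM in untreated cells, 70474 and 63408 with control siRNA, 73962 and 76067 after knockdown, 79596 and 73188 with v1 wild type, 83065 and 74930 with v1 S34F, 81802 and 75286 with v3 wild type, and 81563 and 77582 with v3 S34F. All 10 libraries with U2AF1 siRNA were thus above the 4 without it. In bulk RNA, fewer cells of a kind and less RNA per cell cannot be told apart. By share of FPKM times length the members took between 3.88 and 5.25%.

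**Figure D4:**
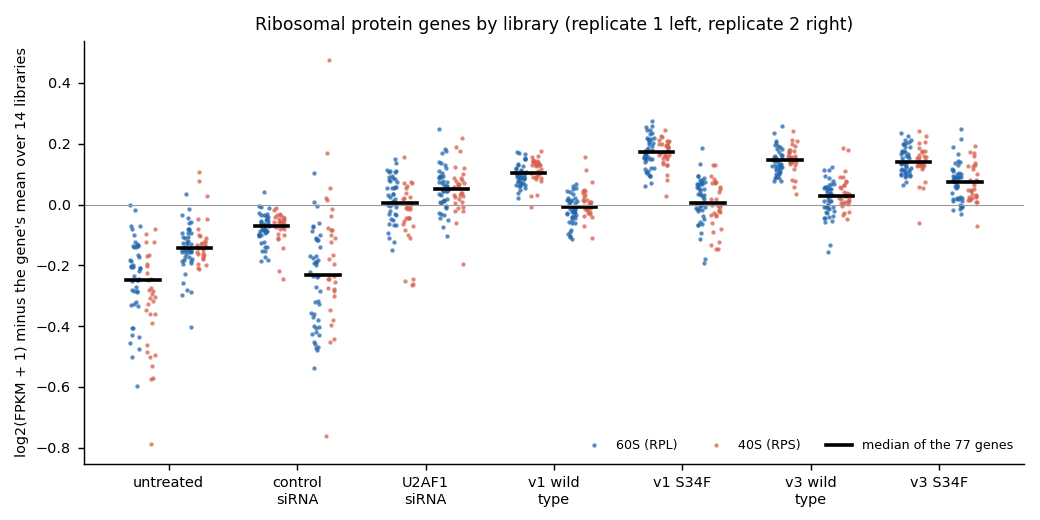
Level of each ribosomal protein gene in each library as log2(FPKM + 1) minus the gene's mean over 14 libraries; blue points are 60S genes, red points 40S genes and black bars the median of the 77 genes. Control siRNA replicate 2 spreads widely, with RPS28 at the top and RPS27 at the bottom.

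U2AF1 knockdown was compared with control siRNA at the gene level on log2(FPKM + 1), over 14233 genes. None of the 77 members was called, against 2.85% of all genes, 0.787% higher and 2.06% lower. At an unadjusted p under 0.05 there were 21 members, all higher, against 18.9% of all genes in either direction. The log2 change was above 0 in 71 of 77 members with a median of 0.18, against -0.01 over all genes tested. The median was 0.21 for 60S and 0.14 for 40S members.

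In 56 members both knockdown libraries lay above both control libraries, which 24.7% of all genes did, and in 1, RPS3, both lay below, which 26.7% did. Much of the size of these changes rested on control siRNA replicate 2. Without that library the median was 0.10, and without replicate 1 it was 0.26. Rescaled to a fixed sum per library the median was 0.05, with 49 members above 0, and the median of all genes was -0.13, so that relative to all genes the members were as far above as before. After quantile normalization it was 0.06, with 49 members above 0 and an all-gene median of 0.02.

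The largest higher values were in RPS27, RPL29 and RPL15. RPS27, a zinc-finger protein of the 40S subunit, had 797 and 484 FPKM with control siRNA and 862 and 823 after knockdown (log2 change 0.44, standard error 0.18, limma adjusted p = 0.232). RPL29, a 60S protein, had 416 and 325 FPKM with control siRNA and 452 and 517 after knockdown (0.39, standard error 0.13, adjusted p = 0.137). RPL15, a core 60S protein, had 733 and 548 FPKM with control siRNA and 837 and 805 after knockdown (0.37, standard error 0.13, adjusted p = 0.159). In each of them control siRNA replicate 2 was the lowest of the 14 libraries.

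With the replicate number as a block, 3 members were called higher after knockdown, against 4.69% of all genes called higher in the same fit. These were RPL15 (adjusted p = 0.0329), RPL6 (adjusted p = 0.0434) and RPL14 (adjusted p = 0.0462), all 60S proteins. RPL6 had 735 and 757 FPKM with control siRNA and 906 and 928 after knockdown (log2 change 0.30), and it was the member with the smallest adjusted p without the block, at 0.106. RPL14 had 395 and 320 FPKM with control siRNA and 456 and 460 after knockdown (0.36). With control siRNA replicate 1 left out, so that the low replicate 2 was the one control library, RPL15 (0.58, adjusted p = 0.0439) and RPS27 (0.80, adjusted p = 0.0225) were called. With replicate 2 left out RPL15 had 0.16 (adjusted p = 0.640), RPS27 0.08 (adjusted p = 0.862), RPL29 0.21 (adjusted p = 0.565) and RPL14 0.21 (adjusted p = 0.599).

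The largest lower values were in RPS3, RPS28 and RPL13. RPS3, a 40S protein at the mRNA entry channel, had 1272 and 1312 FPKM with control siRNA and 1105 and 1157 after knockdown (log2 change -0.19, standard error 0.11, limma adjusted p = 0.378). After quantile normalization it was called lower, with a log2 change of -0.38 and an adjusted p of 0.0376. RPS28, a small 40S protein, had 66.3 and 109.8 FPKM with control siRNA and 65.9 and 85.7 after knockdown (-0.18). RPL13 differed by -0.06.

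**Figure D5:**
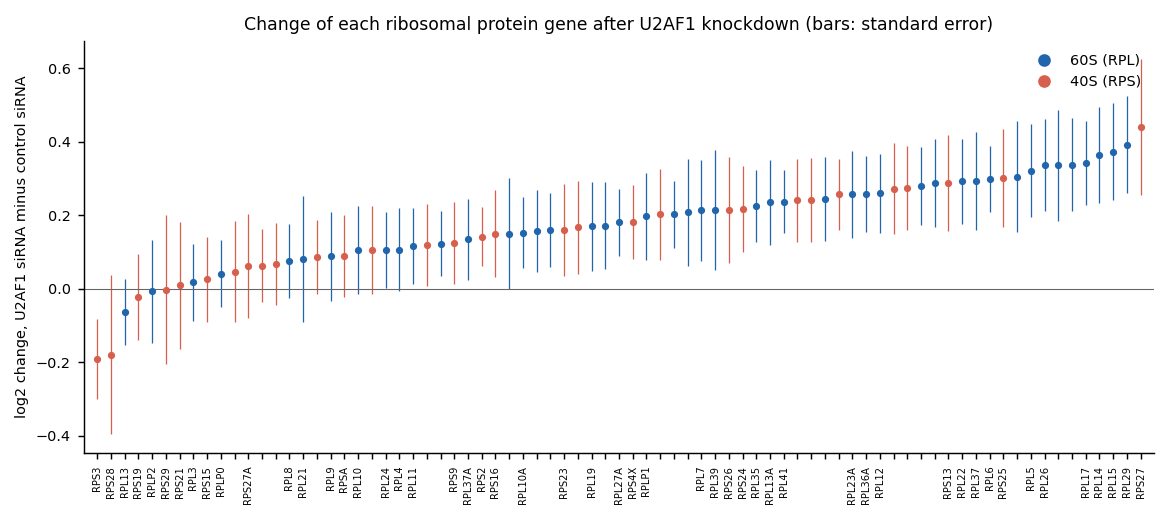
Log2 change of each ribosomal protein gene between U2AF1 siRNA and control siRNA (vertical axis), in increasing order; points are estimates and bars standard errors, blue for 60S and red for 40S. The values run from -0.19 (RPS3) to 0.44 (RPS27) and 71 of 77 lie above 0; symbols mark members named in the text.

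Among members that work together, RPL5 and RPL11, which bind 5S rRNA and hold back MDM2 when ribosome assembly fails, changed by 0.32 and 0.12 on the log2 scale after knockdown (standard errors 0.13 and 0.10, limma adjusted p = 0.202 and 0.610). The P stalk proteins RPLP0, RPLP1 and RPLP2 changed by 0.04, 0.20 and -0.01. The 19 members mutated in Diamond-Blackfan anemia had a median of 0.22, with 16 above 0. The 10 members that share sequence with paralogs or pseudogenes, among them RPL36A, RPL39, RPL26, RPL22, RPL7, RPS27, RPL21, RPL23A and RPL17, were all above 0, with a median of 0.26, and none was called. Of the 8 members listed for known unproductive splicing 7 were above 0, with a median of 0.18.

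Wild-type U2AF1, both isoforms together, was compared with the knockdown. No member was called, against 1.43% of all genes, and 1 had an unadjusted p under 0.05, against 15.8% of all genes. The median log2 change was 0.04, against 0.02 over all genes, with 55 of 77 above 0. In 8 members all 4 wild-type libraries lay above both knockdown libraries, against 18.1% of all genes, and in 1, RPL6, all lay below, against 16.3%. The highest values were 0.31 for RPS29, 0.29 for RPS3 (standard error 0.09, limma adjusted p = 0.159) and 0.23 for RPS21, and the lowest -0.14 for RPL6, -0.08 for RPL22 and -0.08 for RPS9. RPS3 had 1459 and 1310 FPKM with v1 wild type and 1459 and 1327 with v3 wild type, all above the knockdown libraries.

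S34F was compared with wild type over both isoforms. No member was called, against 1.85% of all genes, and none had an unadjusted p under 0.05, against 15.9% of all genes. The median log2 change was 0.03, against 0.02 over all genes, with 64 of 77 above 0. The highest values were 0.14 for RPL12 (standard error 0.08, limma adjusted p = 0.410), 0.13 for RPL3 and 0.12 for RPL13A, and the lowest -0.11 for RPS21 and -0.05 for RPS15. Rescaled to a fixed sum per library all 77 were below 0, with a median of -0.12 against -0.11 over all genes. That sum includes the short isoform of AL132768.1 named above. Without isoforms under 200 bases in the sum, a setting chosen after seeing the data, the median was 0.02, with 59 members above 0. The sign of these small values thus differed with what the sum included. The groups did not overlap in RPL12, which was higher, against 6.89% of all genes, and in RPS21, which was lower, against 6.65%.

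The S34F effect did not pass the test for a difference between v3 and v1 in any member or in any of the genes tested (0%). The median of that difference was -0.02 for members and 0.00 for all genes. The values furthest from 0 were -0.16 for RPLP2, -0.12 for RPL37A, -0.10 for RPLP1, 0.12 for RPL22, 0.10 for RPL21 and 0.09 for RPS28. With a standard error of 0.16 for a typical member, differences of this size could not be resolved. At an unadjusted p under 0.05 there were 0 members and 0.71% of all genes. The isoforms v3 and v1 themselves also gave no call in members or all genes (0%), with 2.19% of all genes and 0 members at an unadjusted p under 0.05. The values ran from -0.04 for RPL23A, -0.02 for RPL7 and -0.02 for RPS26 to 0.11 for RPL9, 0.07 for RPL13 and 0.07 for RPL15, with a median of 0.03. The groups did not overlap in 1 member, RPL13, that was higher with v3, against 0.892% of all genes, and in none that was lower, against 0.604%. Rescaled to a fixed sum per library all 77 members were above 0 in both of these comparisons, with medians of 0.28 and 0.17 against 0.28 and 0.14 over all genes. Without isoforms under 200 bases in the sum the members' medians were -0.01 and 0.03.

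Control siRNA with empty vector was compared with untreated cells. No gene at all was called (0%), and 2 members had an unadjusted p under 0.05 against 5.13% of all genes. The median was 0.05, against -0.02 over all genes, with 51 of 77 above 0. Without control siRNA replicate 1 the median was -0.03, and without replicate 2 it was 0.13. RPS28 had the highest value at 0.43, RPS19 had 0.35 (standard error 0.12, limma adjusted p = 0.927) and RPS27A, which is made as a fusion with ubiquitin, had 0.27. Leaving out control siRNA replicate 2 took RPS28 to 0.07, and leaving out untreated replicate 1 took RPS27A to 0.04. The lowest were -0.28 for RPS27, -0.16 for RPS26 and -0.14 for RPL15. RPS19 had 1677 and 2039 FPKM in untreated cells and 2261 and 2452 with control siRNA. The groups did not overlap in 17 members that were higher, against 12.8% of all genes, and in 1, RPL35, that was lower, against 16.5%.

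The TOP motif was looked for at the annotated starts. The RefSeq table of starts (GRCh38.p14) held 62 of the 77 members. A C at the start followed by at least 4 bases that are each C or T was present in 42 of the 62, or 67.7%, against 4.04% of 27305 starts. The letters CTTTC, which can overlap such a run, on the sense strand within 15 bases on either side of the start, were in 27 members, or 43.5%, against 4.18% of all starts. On the other strand they were in 1 member, or 1.61%, against 3.17%. The windows show RPS24, RPL24, RPLP1 and the 3 members called higher with the replicate block. They give 15 bases before and 15 after the start, with the pyrimidines that run from the start in capitals.
RPS24, chr10:78033848-78033877, GRCh38.p14, plus strand: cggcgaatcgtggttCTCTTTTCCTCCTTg
RPL24, chr3:101686704-101686733, GRCh38.p14, minus strand: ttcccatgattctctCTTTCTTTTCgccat
RPLP1, chr15:69452803-69452832, GRCh38.p14, plus strand: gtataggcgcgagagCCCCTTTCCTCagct
RPL14, chr3:40457324-40457353, GRCh38.p14, plus strand: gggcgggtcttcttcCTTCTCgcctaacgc
RPL6, chr12:112411428-112411457, GRCh38.p14, minus strand: tatttgtatcctcagTgaatcagaaccaga
RPL15, chr3:23916530-23916559, GRCh38.p14, plus strand: ggcgctggggcctgcTggaggagcttcacg
RPL6 and RPL15 have no such run at the start listed here, and RPL14 has one. The replicate block called 3 of the 77 members higher, against 4.69% of all genes, so these calls do not set members apart. Whether the motif bears on them was not tested. A start listed in RefSeq may not be the one used in these cells.

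Genes outside the rule that act with the ribosome were taken from lists. Of 40 ribosome biogenesis factors, 1 was called after knockdown, a share near the 2.85% of all genes, with a median of 0.10 and 24 above 0. It was GNL3, a nucleolar GTPase (log2 change 0.44, standard error 0.09, limma adjusted p = 0.0332). It had 93.8 and 91.0 FPKM with control siRNA and 128.7 and 123.3 after knockdown. With S34F, where 1.85% of all genes were called, 1 of the 40 was called. UTP14A, an 18S rRNA processing factor, rose by 0.43 (adjusted p = 0.0403). Of 15 genes of RNA polymerase I and its factors, RRN3, its initiation factor, fell by 0.43 with S34F (adjusted p = 0.0163), and none was called in the other comparisons.

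Of 11 regulators of TOP mRNAs, 2 fell after knockdown, against 2.06% of all genes, while 6 of the 11 were above 0 and the median was 0.08. MTOR, the kinase that controls TOP translation, had 16.4 and 16.0 FPKM with control siRNA and 10.4 and 10.0 after knockdown (log2 change -0.62, standard error 0.14, limma adjusted p = 0.0388). It was also the 1 of the 11 called with wild-type U2AF1, against 1.43% of all genes, with a rise of 0.55 (adjusted p = 0.0490). RPS6KB2, a kinase for the ribosomal protein S6, changed by -0.65 after knockdown (adjusted p = 0.0443). Of 19 other translation mRNAs with a TOP motif none was called, and their median after knockdown was 0.19, with 15 above 0. Of 10 ribosomal protein genes outside the name rule 8 were tested and none called, with a median of 0.24 after knockdown. Of 5 genes tested that link ribosomal proteins to p53, 1 was called with wild-type U2AF1, against 1.43% of all genes, and none after knockdown. It was CDKN1A, the p21 cell-cycle inhibitor, which rose by 0.75 (standard error 0.13, limma adjusted p = 0.0225).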

How the data were processed

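RNA from A549 cells was measured in 14 libraries. Per the labels, 1 µg of total RNA was used. The submitters' processing notes list Trimmomatic 0.30, TopHat2 2.0.12 and the build GRCh37. Which quantifier was used, and with which annotation, is not given in the sources used here. As the file headers state, the tables deposited by the authors hold FPKM per isoform with confidence bounds, and a coverage signal per isoform, which served only for relative depth. The absolute number of reads is unknown, and no counts were used.

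Gene FPKM was the sum over isoforms. The 14233 genes with a mean of at least 1 FPKM and no failed estimate were fitted as log2(FPKM + 1) with limma 3.58.1 (R 4.3.3, intensity trend), with a mean for each of 7 groups and 7 residual degrees of freedom. A fold change is on that scale and understates changes of low genes. Usage and unproductive share were fitted in percent with the same model, for isoforms with a mean usage of 5 to 95% and genes with a mean share of 1 to 99%. P-values were adjusted by Benjamini-Hochberg over all features in each comparison, and features under 0.05 were called. The gene-level fit was tested on simulated data, with changes larger than those of the members. That test does not cover usage or unproductive share. Transcript types and exon structures came from GENCODE release 29 (727 of 744 member isoforms matched by identifier, 651 with the same length).

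Same-numbered replicates deviated together in each of 21 pairs of groups (correlation over genes tested 0.160 to 0.571; over the members alone -0.190 to 0.649, so not in every pair), a pairing read from the data, and fits with a replicate block were also made. Alternatives were another pseudocount, no filter, other scalings, other limits on usage, an arcsine transform and leaving out each library. The members and lists were chosen with earlier results of these data known. The text names the highest and lowest members, members and isoforms called or, where none was, the 3 with the largest change or smallest p, and members of the functional lists; some members these rules pick are not reported here.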

Additional observations from a re-analysis of the deposited data

How the results depend on the processing

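Of 126 values of the 24 main results under other settings with all libraries, 117 were counted as unchanged. Of 336 with 1 library left out, 315 were. A count of calls was unchanged if it was equal, or if both counts were above 0 and within a ratio of 1.5. A median was unchanged if it moved by no more than the spread between replicates, 0.092, so its sign could still turn. The replicate block gave 3 ribosomal protein genes called after knockdown in place of 0, and 0 isoforms called for usage in place of 1. It changed no other call among the main counts. Quantile normalization gave 1 gene called after knockdown and a median of 0.0567, and the arcsine transform gave 0 isoforms (adjusted p of the RPS24 isoform ENST00000372360 0.0855). Rescaling to a fixed sum moved the medians to 0.0458 (knockdown), -0.12 (S34F), 0.28 (difference of the S34F effect) and 0.17 (v3 against v1). Rescaling without isoforms under 200 bases, chosen after seeing the data, gave 0.11, 0.02, -0.01 and 0.03. The fixed sum includes the short isoforms of AL132768.1 and MIR1260B.

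Signs of values that were not called turned under rescaling to a fixed sum for RPL13A (-0.0246), RPL3 (-0.0148) and RPL12 (-0.0037) with S34F, for RPLP2 (0.14), RPL37A (0.18) and RPLP1 (0.20) in the difference of the S34F effect, and for RPL23A (0.10), RPL7 (0.12) and RPS26 (0.12) between v3 and v1. The sign turned with quantile normalization for RPS15 (0.0139) with S34F.

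With 1 library left out, genes called after knockdown ranged from 0 to 2. Isoforms called for usage ranged from 0 to 1 for control siRNA against untreated cells, 0 to 1 after knockdown, 0 to 2 with wild-type U2AF1 and 0 to 1 with S34F. Genes called for unproductive share ranged from 0 to 1 for control siRNA against untreated cells and from 0 to 1 after knockdown, in both cases RPL14 without control siRNA replicate 1. Values whose sign turned ranged from -0.64 to 0.0783 for RPS27 and from -0.35 to 0.0698 for RPL15 (control siRNA against untreated), from -0.54 to 0.18 for RPS28 (knockdown), from -0.16 to 0.0029 for RPS9 (wild type), from -0.0679 to 0.25 for RPS28, -0.11 to 0.30 for RPL21 and -0.0457 to 0.29 for RPL22 (difference of the S34F effect), and from -0.0962 to 0.0140 for RPL23A, -0.0861 to 0.0427 for RPL7 and -0.10 to 0.0618 for RPS26 (v3 against v1). The cause was not tested. Small medians also turned sign, with ranges of -0.03 to 0.13 (control siRNA against untreated), -0.0083 to 0.0669 (S34F), -0.0995 to 0.0550 (difference of the S34F effect) and -0.0127 to 0.0658 (v3 against v1). With 2 libraries a group and no read counts, changes of the size of the replicate spread, an SD of 0.09 for the members' median, could not be resolved.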
